A study of Mus musculus with 12 samples.

Results

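Bone marrow-derived macrophages (BMDMs) of C57BL/6 background carried a floxed Toll-like receptor 4 gene, either alone (tlr4f/f) or together with lysM-cre (tlr4f/f-lysM-cre), and their RNA was sequenced in 12 libraries. The comparison described here takes 6 of them by the headings of the deposited count table. The 3 columns under LPS- tlr4f/f-lysM-cre were set against the 3 under LPS- tlr4f/f. They are called the cre-headed and the f/f-headed libraries 1 to 3 below. BMDMs were grown from bone marrow in M-CSF (50 ng/mL, 7 days), and the other 6 libraries are headed as treated with 1 µg/mL of lipopolysaccharide (LPS) for 6 h. All groups share the floxed tlr4 alleles. Cre is driven by the lysozyme M locus (Lyz2), is active in myeloid cells in general and is not particular to macrophages, and its insertion interrupts Lyz2. The labels give no age and do not say whether the 3 libraries of a group came from separate mice, so p-values measure the spread between these libraries, which may be technical.

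TLR4 is the receptor of macrophages for LPS, the outer membrane component of Gram-negative bacteria. With its partner MD-2 it signals through 2 adaptor branches. MyD88 leads through IRAK kinases and TRAF6 to NF-kB and AP-1 and to the genes of inflammatory cytokines, and TRIF leads through TBK1 and IRF3 to interferon beta, whose receptor switches on the interferon-stimulated genes through a complex of STAT proteins and IRF9. Both branches also induce their own inhibitors, such as A20, IkB alpha and SOCS proteins.

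The 3 genes that check the headings were read first, and over the 12 libraries they went against them. Tlr4 (chr4:66827551-66846581, GRCm38.p6), the floxed gene, had 4486, 9136 and 6449 counts in the f/f-headed libraries and 4367, 3041 and 3739 in the cre-headed libraries. In CPM (counts per 1e+06 of a library total multiplied by its TMM factor, the scaling used below), these were 72.7, 138 and 113 against 110, 87.0 and 111, and the groups overlapped, with a log2 fold change of -0.07 (SE 0.25, adjusted p = 0.849 in edgeR, n = 3 per group). The TMM factors were 1.17 to 1.30 in the f/f-headed and 0.766 to 0.865 in the cre-headed libraries. By library totals alone, Tlr4 had 92.7, 162 and 146 CPM against 85.5, 66.6 and 95.7 CPM, overlapping in 1 library of each group (log2 fold change -0.69, adjusted p = 0.0515). In the libraries headed LPS+, Tlr4 had 1484, 1086 and 1412 counts under the heading tlr4f/f and 1191, 891 and 1117 under tlr4f/f-lysM-cre, all below those of the 6 libraries compared here. Lyz2 (chr10:117277541-117282272), the locus of Cre, had 383956, 591201 and 1244818 counts in the f/f-headed and 221787, 303431 and 235201 in the cre-headed libraries, against 494 to 623 under LPS+ tlr4f/f and 2127 to 3272 under LPS+ tlr4f/f-lysM-cre. Il1b (chr2:129364569-129371164), which encodes interleukin-1 beta and is induced by LPS, had 405, 256 and 4 counts in the f/f-headed libraries and 306385, 52432 and 90388 in the cre-headed libraries. Il1b counts were 128 to 195 under LPS+ tlr4f/f and 97411 to 113136 under LPS+ tlr4f/f-lysM-cre.

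There are thus 2 readings of the same 6 libraries. Read as headed, the comparison is that of unstimulated BMDMs with and without lysM-cre. If the heading LPS+ tlr4f/f belonged to the columns now headed LPS- tlr4f/f-lysM-cre, and the other way round, the 6 libraries with lower Tlr4 and Lyz2 counts would all carry Cre, the 6 with higher Il1b counts would all have had LPS, and the comparison would be the response of Tlr4-intact tlr4f/f BMDMs to LPS. The values below are the same under both readings, "higher" always means higher in the cre-headed libraries, and the reading to be used cannot be settled from the labels.

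**Figure D1:**
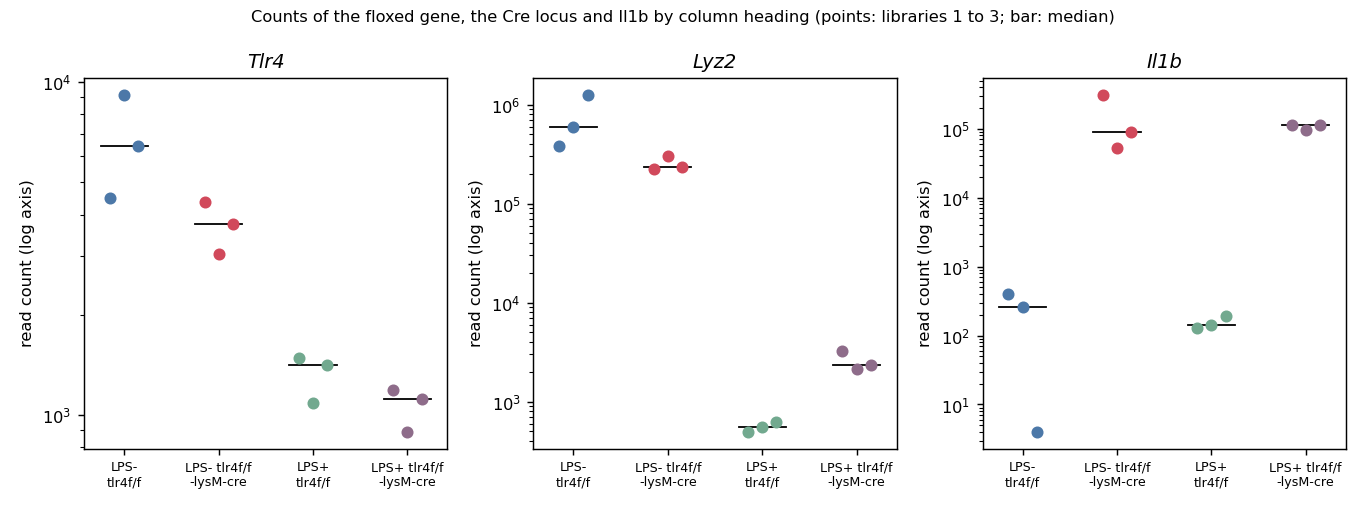
Counts of Tlr4, Lyz2 and Il1b on a log axis in the 12 libraries, grouped by column heading, with 1 point per library and a bar at the median. Tlr4 lies between 3041 and 9136 under both LPS- headings and between 891 and 1484 under both LPS+ headings, Lyz2 separates in the same way, and Il1b is at or above 52432 counts only under the headings that hold lysM-cre, LPS- as well as LPS+.

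The 6 libraries held 39082120 to 56445268 counts over 43131 genes. Pearson correlations of log2 CPM between libraries were 0.928 to 0.964 within the f/f-headed group, 0.955 to 0.961 within the cre-headed group and 0.801 to 0.896 between them, and the biological coefficient of variation was 43.1%. The first principal component held 69.0% of the variance and separated the groups. The summed level of 10 macrophage markers was 13540 to 27993 CPM in the f/f-headed and 17935 to 20647 CPM in the cre-headed libraries. Without Lyz2, the other 9 summed to 7318, 7054 and 6226 CPM against 13915, 11967 and 10970 CPM with no overlap, and by library totals alone to 9334, 8280 and 8075 against 10793, 9160 and 9479, which overlapped. Of 61 markers of 6 other cell types, 30 could be tested and 1 was called, Xcr1 of dendritic cells, with 4 at an adjusted p below 0.05, while DESeq2 called 6 and voom 2. The call of Xcr1 (log2 fold change 4.75, SE 0.84) was kept only without f/f-headed library 3, and its adjusted p was at most 0.0259 without another library. Neutrophil markers summed to 13.5, 11.7 and 0.63 CPM in the f/f-headed and 26.4, 14.0 and 184 CPM in the cre-headed libraries, with Ly6g and Retnlg at 3 counts or fewer in each. Fibroblast and stroma markers summed to 834, 78.5 and 13.6 CPM against 1225, 211 and 1918 CPM, so that library 2 of both groups and f/f-headed library 3 held least. Their part in the results below was not tested. In such bulk RNA, fewer cells of a type and less RNA per cell cannot be told apart. Histones, structural RNAs and sex-linked genes had no call among 16 tested by edgeR, DESeq2 or voom, and 4 had an unadjusted p below 0.05.

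The groups differed in a large share of genes, with secreted inflammatory proteins and interferon-stimulated genes among the highest and DNA replication genes among the lower ones. Of 14635 genes tested, 2497 were differentially expressed genes (DEGs, here a fold change above 2 with an adjusted p below 0.01 in the quasi-likelihood test of edgeR, adjusted by Benjamini-Hochberg), which is 17.1%. There were 1354 higher (9.25%) and 1143 lower (7.81%), and the median log2 fold change over all genes tested was -0.08. These shares are the reference for the counts of each list below. By library totals alone, an alternative chosen after seeing the data, that median was -0.71 and 857 genes were higher and 3349 lower, so the split between the directions depended on the scaling and the changes below are relative to it. In 54.4% of the genes the 2 groups did not overlap. Leaving out a library lowered the number of DEGs to 1343, 1038 and 1682 without f/f-headed libraries 1, 2 and 3 and to 1161, 1161 and 1427 without cre-headed libraries 1, 2 and 3. Each of these fits has 1 sample less, and the number fell by over 1.5 times without any library except f/f-headed library 3. Paralogues that share sequence, such as those of the Gbp, Ifit, Oas, Irgm and Cxcl families, can exchange reads, and because the sources do not say whether strand was used in counting, a gene and its antisense partner (Ptgs2 and Ptgs2os, for example) cannot be told apart.

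**Figure D2:**
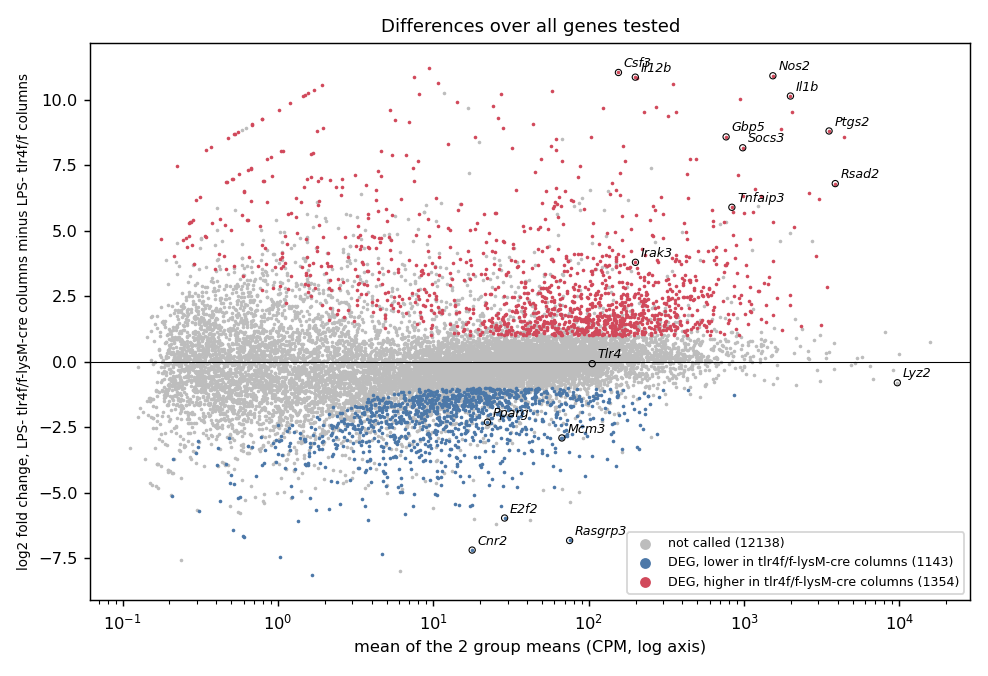
Mean CPM on a log axis against the log2 fold change (cre-headed minus f/f-headed) of the 14635 genes tested. The 1354 DEGs that were higher are red, the 1143 that were lower are blue and the others are grey, and red points reach log2 fold changes above 10.

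By fitted log2 fold change, the rises of Il19, Csf3, Nos2 and Il12b led the genes that have a symbol, groups that did not overlap and at least 10 counts in every cre-headed library. The place of Il19 rests on a fitted value against a group at the count floor, and its bound is below the fold change of the other 3. Il19, a cytokine of the interleukin-10 family, had 0, 1 and 0 counts in the f/f-headed libraries and 117, 459 and 1367 in the cre-headed libraries. This is at least 388-fold higher when the f/f-headed libraries are set to 3 counts each (adjusted p = 0.00283), and the call was lost without any of the f/f-headed libraries (largest adjusted p 0.025). Csf3, the granulocyte colony-stimulating factor, stood at 0.29, 0.14 and 0 CPM against 667, 83.2 and 181 CPM (log2 fold change 11.04, SE 1.42, adjusted p = 0.00241). Cre-headed library 1 was the highest by far, and without f/f-headed library 2 the adjusted p was 0.015. Nos2, the inducible nitric oxide synthase, measured 2.59, 2.10 and 0.03 CPM against 2167, 5173 and 1848 CPM (log2 fold change 10.92, SE 1.58, adjusted p = 0.00345). The lowest cre-headed library exceeded the highest f/f-headed library, yet the call was kept only without f/f-headed library 3 and the adjusted p was at most 0.0188 without another. Il12b, the p40 subunit shared by interleukins 12 and 23, reached 484, 601 and 111 CPM in the cre-headed libraries and at most 0.38 CPM in the others (log2 fold change 10.87, SE 1.30, adjusted p = 0.00194), and it kept the call without each library.

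The falls that led by the same rule were those of Abca6, Zbtb16, Cnr2 and Rasgrp3, of which Abca6 and Zbtb16 rest on fitted values against a group at the count floor. Cnr2, the cannabinoid receptor of immune cells, had 20, 35.9 and 49.9 CPM in the f/f-headed libraries and 0.25, 0.20 and 0.27 CPM in the cre-headed libraries. All 3 cre-headed libraries were low by a like amount (log2 fold change -7.19, SE 0.45, adjusted p = 0.000454), and the call was kept without each library. Rasgrp3, an activator of Ras and Rap1, measured 102, 48.8 and 297 CPM against 1.67, 1.75 and 0.53 CPM (log2 fold change -6.82, SE 0.91, adjusted p = 0.00274). Zbtb16, a zinc finger transcription factor, had 336, 198 and 1107 counts against 3, 0 and 3, which is at least 111.5-fold lower (adjusted p = 0.00451). The calls of Rasgrp3 and Zbtb16 were lost without any of the cre-headed libraries (adjusted p at most 0.0147 and 0.0213). Abca6, a transporter of the ABC family, had 36, 55 and 272 counts against 0, 1 and 0, at least 24.8-fold lower (adjusted p = 0.00909), and lost the call without any single library (at most 0.0414).

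In the TLR4 complex and its adaptors, the receptor itself did not pass the test while kinases and adaptors downstream of it did. Of 21 genes tested, 7 were higher (33.3%, against 9.25% of all genes) and 1 was lower (4.76%, against 7.81%), with a median log2 fold change of 1.18. By library totals alone, 4 were higher and 3 lower. Irak3, the inhibitory IRAK-M, had 30.9, 26.4 and 23.0 CPM in the f/f-headed and 435, 274 and 410 CPM in the cre-headed libraries (log2 fold change 3.80, SE 0.25, adjusted p = 0.000478). Irak2, a kinase of the MyD88 branch, stood at 36.4, 46.6 and 47.3 CPM against 549, 434 and 340 CPM (3.34, SE 0.25, adjusted p = 0.000603). Both calls were kept without each library, and a lack of overlap between the groups was a condition for naming these genes. Myd88 (2.22, SE 0.17), Tbk1 (1.59, SE 0.13), Tab2, Ticam2 and Ikbke were the other genes that rose. Tab1, a partner of the kinase TAK1, fell by 1.67 on the log2 scale (SE 0.29, adjusted p = 0.00599). Irak1 was lower in all 3 cre-headed libraries but by under 2-fold (log2 fold change -0.69, SE 0.13, adjusted p = 0.00842). Leaving out f/f-headed library 2 left 4 calls, and leaving out cre-headed library 1 left 8.

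Most of the genes of NF-kB and its inhibitors rose. Of 18 tested, 14 were higher (77.8%, against 9.25% of all genes) and none was lower (0 lower also at an unadjusted p below 0.05). The median log2 fold change was 2.98, and 12 or 13 were called when a library was left out. Tnfaip3, which encodes the ubiquitin-editing inhibitor A20, had 19.7, 49.9 and 12.8 CPM in the f/f-headed and 1839, 1664 and 1419 CPM in the cre-headed libraries (5.90, SE 0.61, adjusted p = 0.00123). Nfkbiz, the nuclear inhibitor family member IkB zeta, measured 25.6, 19.1 and 34.7 CPM against 848, 748 and 872 CPM (4.96, SE 0.29, adjusted p = 0.00041). The 3 cre-headed libraries lay close together for both genes, and both kept the call without each library. Nfkbia, which encodes IkB alpha, stood at 100, 59.8 and 70.5 CPM against 1802, 1723 and 1530 CPM (4.46, SE 0.28). The subunits Nfkb2 (4.24, SE 0.33), Nfkb1 (3.05, SE 0.30), Rel (2.80, SE 0.28), Relb (2.79, SE 0.25) and Rela (1.38, SE 0.15) rose as well, and Chuk, Ikbkg, Cyld and Nfkbid were the 4 genes not called. Nfkbia, Nfkb1, Nfkb2 and others named here outside the rule given under the methods were chosen for their known role after their values were seen.

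A search of the 250 bases before the RefSeq start (GRCm38.p6) was possible for 10252 of the 14635 genes tested. The NF-kB consensus, sought on both strands, was found in 9 of 14 genes of the NF-kB list with a window (64.3%), against 5.41% of all genes with a window, 10.8% of the DEGs that were higher and 4.23% of those that were lower. A match is a description of letters and not of binding. Of the inhibitors with a match, Tnfaip3 and Nfkbia are shown because their counts are given above, with 80 bases of each promoter, on the strand of the gene with the match in capitals, ending 2 bases before the start for the match of Tnfaip3 and 19 bases before it for that of Nfkbia. They lie at chr10:19015411-19015490 and chr12:55492648-55492727, both on the minus strand.
Tnfaip3: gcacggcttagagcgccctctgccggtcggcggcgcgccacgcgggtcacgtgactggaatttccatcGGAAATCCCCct
Nfkbia: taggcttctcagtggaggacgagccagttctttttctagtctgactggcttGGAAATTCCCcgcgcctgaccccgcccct

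Transcription factors of the interferon branch rose in part. Of 15 IRF and STAT genes, 5 were higher (33.3%, against 9.25% of all genes) and none was lower, with a median log2 fold change of 0.88. By library totals alone, 4 were higher and 1 lower, and 4 or 5 were called when a library was left out. Irf1, an activator of interferon and inflammatory genes, had 42.4, 46.9 and 37.8 CPM against 315, 452 and 236 CPM (2.98, SE 0.28, adjusted p = 0.000886). Stat2, a subunit of the complex ISGF3, had 186, 216 and 142 CPM against 980, 1224 and 943 CPM (2.53, SE 0.24, adjusted p = 0.000984). Both genes were named on condition that the groups did not overlap, and both calls were kept without each library. Stat3 (2.42) and Irf2 (1.17) were among the others that rose. Irf7, itself an interferon-stimulated gene, had 741, 512 and 97.2 CPM against 1876, 1951 and 1693 CPM and did not pass (2.03, SE 0.67, adjusted p = 0.0556), f/f-headed library 3 being the lowest. Irf3, which TBK1 activates by phosphorylation, had a log2 fold change of -0.16 (SE 0.14, adjusted p = 0.411).

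Among 18 AP-1 and ATF factors, 6 were higher (33.3%, against 9.25% of all genes) and none was lower (median 1.19). The directions depended on the fit, with 8 higher and 2 lower both by DESeq2 and in the fit of all 12 libraries, and 5 and 3 by library totals alone. Batf2 and Batf, which pair with JUN proteins and IRFs, had 1.77, 4.51 and 1.68 CPM and 1.59, 4.11 and 1.35 CPM in the f/f-headed libraries. In the cre-headed libraries they reached 56.9, 140 and 85.8 CPM (5.15, SE 0.58, adjusted p = 0.00162) and 85.0, 128 and 33.1 CPM (5.12, SE 0.71, adjusted p = 0.00303). Library 2 was the highest of its group for both genes in both groups. Junb (2.59, SE 0.21), Maff (3.56), Fosl2 (2.60) and Maf (2.18) also rose, while Jun and Fos, immediate-early genes of the same family, had log2 fold changes of -0.83 (SE 0.28, adjusted p = 0.0607) and -1.29 (SE 0.58, adjusted p = 0.127). The list had 3 calls without f/f-headed library 2 or any 1 of the cre-headed libraries and at most 5 without another, and Batf kept its call only without f/f-headed library 2 or cre-headed library 3 (adjusted p at most 0.0127).

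Cytokine genes had the highest median change of the 18 response lists. Of 24 tested, 19 were higher (79.2%, against 9.25% of all genes) and none was lower. All 24 had an adjusted p below 0.05, against 37.3% of all genes. The median log2 fold change was 8.0, or 7.24 with the 4 genes at the count floor set to their bound. Il1b reached 7737, 1500 and 2677 CPM in the cre-headed libraries from 6.56, 3.86 and 0.07 CPM in the f/f-headed libraries (10.15, SE 1.78, adjusted p = 0.00673). Cre-headed library 1 and f/f-headed library 3 stood apart from their groups, and the call was kept only without f/f-headed library 3 (adjusted p at most 0.0323 without another). Tnf, the tumour necrosis factor, had 49.2, 31.5 and 14.9 CPM against 4699, 1534 and 1415 CPM (6.32, SE 0.78, adjusted p = 0.00209), and Il6 had 1.12, 0.20 and 0 CPM against 1226, 406 and 449 CPM (10.62, SE 1.55, adjusted p = 0.00357). Both rose most in cre-headed library 1. Il10, the anti-inflammatory cytokine, stood at 2.61, 2.85 and 0.45 CPM against 63.2, 120 and 164 CPM (5.87, SE 0.80, adjusted p = 0.00285), with the highest value in cre-headed library 3. Its call was lost without f/f-headed library 1 or 2 or cre-headed library 2 or 3 (adjusted p at most 0.0126). Ifnb1, interferon beta of the TRIF branch, had at most 0.03 CPM in the f/f-headed libraries and 3.56, 2.75 and 4.44 CPM in the cre-headed libraries, at least 73.7-fold higher. Il1rn, Csf1, Osm, Lif and Csf2 were the 5 tested genes not called, at adjusted p of 0.0148, 0.0238, 0.0252, 0.0112 and 0.0248. The count depended on the filter for low counts, with 11 called without a filter and 8 with at least 10 counts in every library. Leaving out 1 library gave 10 calls without f/f-headed library 2, 14, 14 and 13 without f/f-headed library 1 and cre-headed libraries 1 and 3, and 18 without f/f-headed library 3.

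A TATA box (TATAAA, sought on the transcribed strand only) lay in the 250 bases before the start of 29.4% of the cytokine genes with a window and of 4.92% of all genes with one, and 29.4% of the cytokine genes (5 of 17) held the NF-kB consensus. Of the DEGs with a window, a TATA box stood before 7.14% of those that were higher and 3.17% of those that were lower. The promoters of 3 of the cytokines with values above are shown. Ifnb1, whose window holds both motifs, is not. Capitals mark the TATA box of Il1b (25 bases before the start) and Tnf (23 bases) and the NF-kB consensus of Il6 (34 bases). The stretches lie at chr2:129371140-129371219 and chr17:35202008-35202087 on the minus strand and at chr5:30013034-30013113 on the plus strand. The start used for Il1b lies within the gene span given above, so its stretch overlaps that span.
Il1b: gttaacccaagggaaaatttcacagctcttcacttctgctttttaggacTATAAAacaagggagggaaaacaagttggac
Tnf: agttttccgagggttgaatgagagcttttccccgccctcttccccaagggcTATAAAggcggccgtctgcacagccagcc
Il6: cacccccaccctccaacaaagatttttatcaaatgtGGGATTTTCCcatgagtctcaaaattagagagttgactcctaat

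Chemokine genes rose, and several that did not pass had 1 low f/f-headed library. Of 21 tested, 11 were higher (52.4%, against 9.25% of all genes) and none was lower, with a median log2 fold change of 5.74. Cxcl11, named for a ligand of the chemokine receptor CXCR3 (protein not measured here), had 5, 3 and 0 counts against 3660, 1471 and 1001 (10.23, SE 0.87, adjusted p = 0.000741), and kept the call without each library. Cxcl1, a neutrophil attractant, had 1.25, 0.63 and 0 CPM against 1193, 70.7 and 350 CPM (9.73, SE 1.80, adjusted p = 0.00806), and its call was lost without any single library (adjusted p at most 0.0383). Cxcl10 (9.52), Ccl3 (6.46) and Ccl4 (5.74), which attract T cells and monocytes, rose too. Ccl2, which encodes the monocyte attractant MCP-1, had 81.5, 254 and 0.61 CPM in the f/f-headed libraries and 2992, 2041 and 1419 CPM in the cre-headed libraries. The groups did not overlap, yet the f/f-headed libraries spread over more than 2 orders of magnitude and Ccl2 was not called (4.26, SE 1.65, adjusted p = 0.0857). Ccl5 (4.62, adjusted p = 0.0373) and Ccl7 (5.33, adjusted p = 0.0675) were likewise lowest in f/f-headed library 3. The list had 5 calls without f/f-headed library 1 or 2 or cre-headed library 1, 7 without cre-headed library 2 or 3 and 10 without f/f-headed library 3. It had 7 without a filter or with at least 10 counts in every library, and 17 in the fit of all 12 libraries.

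Of 13 chemokine genes with a window, 5 held the NF-kB consensus (38.5%) and 6 the TATA box (46.2%). The 80 bases of Cxcl1 (chr5:90891140-90891219, plus strand) are shown because 2 overlapping matches to the NF-kB consensus, in capitals, lie 60 bases before its start.
Cxcl1: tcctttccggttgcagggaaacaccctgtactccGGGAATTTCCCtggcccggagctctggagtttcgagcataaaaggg

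Interferon-stimulated genes rose nearly without exception. Of 40 tested, 38 were higher (95.0%, against 9.25% of all genes) and none was lower. All 40 had an adjusted p below 0.05, against 37.3% of all genes, and the median log2 fold change was 3.71. Gbp5, a guanylate-binding protein that promotes inflammasome assembly, had 6.37, 4.92 and 0.61 CPM against 1570, 1730 and 1285 CPM (8.59, SE 0.99, adjusted p = 0.00178), and its adjusted p was 0.0103 without f/f-headed library 2. Iigp1, an immunity-related GTPase, stood at 3.34, 4.0 and 0.10 CPM against 163, 359 and 316 CPM (6.81, SE 1.22, adjusted p = 0.00709). Its call was kept only without f/f-headed library 3 (adjusted p at most 0.0258 without another). Rsad2, the antiviral protein viperin, had 85.5, 86.6 and 33.6 CPM against 6327, 9767 and 6876 CPM (6.80, SE 0.54, adjusted p = 0.000646). Ifit1, which binds viral RNA, had 140, 59.5 and 45.2 CPM against 1843, 2280 and 2169 CPM (4.68, SE 0.51), and Isg15, a ubiquitin-like modifier, had 123, 64.6 and 32.5 CPM against 1537, 1574 and 1186 CPM (4.28, SE 0.53). Of the f/f-headed libraries, library 3 was the lowest for each of these 5 genes, and no cre-headed library overlapped with them. Oas3 (1.67, adjusted p = 0.0118) and Gbp7 (4.96, adjusted p = 0.0116) were the 2 genes not called. Without f/f-headed library 2, 28 of the list were called, and without another library up to 37.

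The interferon-stimulated response element (ISRE, here GAAA followed after any 2 bases by GAAA, on both strands) was found before 18 of the 31 interferon-stimulated genes with a window (58.1%), against 3.37% of all genes with a window, 8.17% of the DEGs that were higher and 2.47% of those that were lower. The promoters of 4 of these genes are shown with the element in capitals. On the other strand it reads as the reverse complement. The nearest matches lie 155, 110, 75 and 56 bases before the start of Gbp5, Rsad2, Ifit1 and Isg15, at chr3:142496734-142496813 (plus), chr12:26456528-26456607 (minus), chr19:34640769-34640848 (plus) and chr4:156200840-156200919 (minus). Ifit1 holds 2 separate matches and Isg15 holds 3 that overlap.
Gbp5: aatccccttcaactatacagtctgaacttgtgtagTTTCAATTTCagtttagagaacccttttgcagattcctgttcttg
Rsad2: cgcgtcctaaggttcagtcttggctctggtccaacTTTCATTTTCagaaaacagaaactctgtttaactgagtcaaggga
Ifit1: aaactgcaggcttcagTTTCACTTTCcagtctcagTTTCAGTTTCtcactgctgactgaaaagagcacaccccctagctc
Isg15: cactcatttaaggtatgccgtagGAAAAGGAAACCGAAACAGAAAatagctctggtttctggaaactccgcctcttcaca

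**Figure D3:**
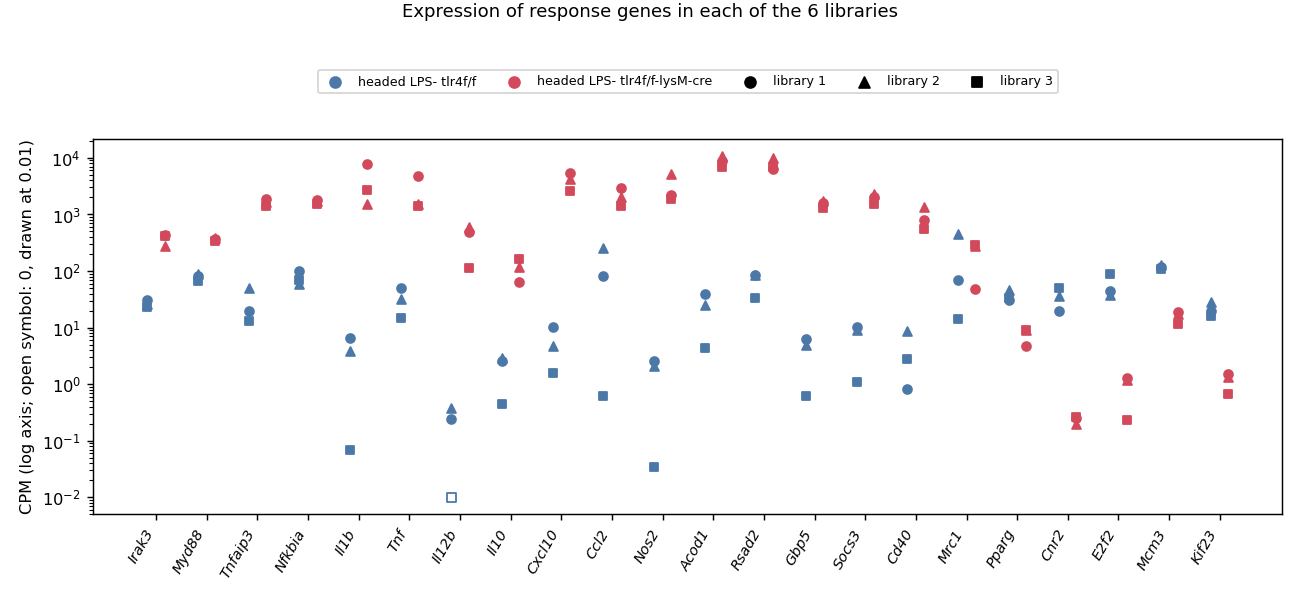
CPM on a log axis of 22 genes in the 6 libraries, f/f-headed in blue and cre-headed in red, with a symbol for each library number and an open symbol for a library at 0, drawn at 0.01 CPM. Il1b reads 7737, 1500 and 2677 CPM in the cre-headed libraries and at most 6.56 CPM in the others, while Mrc1 overlaps.

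Genes listed as feedback inhibitors of the TLR4 response rose in part, though not every member acts only as an inhibitor. Of 20 tested, 9 were higher (45.0%, against 9.25% of all genes) and none was lower (median 2.65). Socs3, which blocks cytokine receptor signalling through JAK kinases, had 10.1, 9.13 and 1.10 CPM against 2047, 2271 and 1543 CPM (8.17, SE 0.98, adjusted p = 0.00194). Dusp2, a phosphatase of MAP kinases, had 3.23, 2.99 and 0.40 CPM against 129, 215 and 128 CPM (6.15, SE 0.82, adjusted p = 0.00274). In both genes f/f-headed library 3 was the lowest and the groups lay far apart. Socs3 lost its call without f/f-headed library 2 (adjusted p 0.0102), and Dusp2 lost its call without f/f-headed library 2 or cre-headed library 2 (at most 0.0136). Socs1 (5.95, SE 0.47), the RNA-degrading Zc3h12a (4.32, SE 0.29) and Zfp36 (3.75, SE 0.31), Dusp16 (3.99, SE 0.20) and the ubiquitin ligase Peli1 (3.56, SE 0.19), whose role is not only inhibitory, kept their calls without each library. Dusp6 (-1.02, SE 0.57, adjusted p = 0.202) and Dusp4 (-0.32, SE 0.34, adjusted p = 0.497) did not pass. The list had 6 calls without f/f-headed library 2.

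Enzymes of arginine, prostaglandin, itaconate and related metabolism rose in most cases. Of 17 tested, 12 were higher (70.6%, against 9.25% of all genes) and none was lower. The median log2 fold change was 5.31, or 5.10 with the gene at the count floor, Ido2, set to its bound. By library totals alone, 12 were higher and 1 lower. Nos2 is given above. Ptgs2, the cyclooxygenase COX-2, had 34.9, 11.5 and 0.54 CPM against 10474, 5131 and 5485 CPM (8.81, SE 1.6, adjusted p = 0.00752). The f/f-headed libraries differed from each other more than the cre-headed ones, and the call was kept only without f/f-headed library 3 (adjusted p at most 0.036 without another). Acod1, which makes itaconate, had 40.0, 24.7 and 4.30 CPM against 8729, 10732 and 6910 CPM (8.58, SE 0.99, adjusted p = 0.00175) and kept its call without each library. Slc7a2 (7.12), Ptges (7.17), Hdc (8.25), Ch25h (5.31) and Gch1 (3.57) encode an arginine transporter, prostaglandin E synthase, histidine decarboxylase, cholesterol 25-hydroxylase and GTP cyclohydrolase, and all rose. Of the arginases, which also consume arginine, Arg1 did not pass (3.04, SE 1.20, adjusted p = 0.0905). Arg2, scaled over the 12 libraries, had 0.27, 0.48 and 0.41 CPM in the f/f-headed and 8.32, 9.32 and 14.4 CPM in the cre-headed libraries. Alox5, the 5-lipoxygenase, had 4.65, 0.85 and 144 CPM against 1.69, 0.14 and 0.15 CPM, so its log2 fold change of -6.20 (SE 2.18, adjusted p = 0.0664) rests on f/f-headed library 3. The list had 5 calls without f/f-headed library 1 or 2 or cre-headed library 2, at most 10 without another, and 5 without a filter for low counts.

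Of the list of MHC class II and co-stimulators, no class II gene passed the test. Of 16 tested, 5 were higher (31.2%, against 9.25% of all genes) and none was lower (median 1.03). All 5 encode co-stimulators or checkpoint ligands. Other genes of that kind, Pdcd1lg2 (3.42, adjusted p = 0.0669), Icosl (1.95, 0.09) and Cd48 (1.13, 0.0321), were not called. Cd40, the receptor for T cell help, had 0.83, 8.87 and 2.78 CPM against 789, 1350 and 557 CPM (7.75, SE 1.06, adjusted p = 0.00294). Its call was lost without f/f-headed library 3 or cre-headed library 1 or 2 (adjusted p at most 0.0119). Cd274, which encodes PD-L1, had 24.4, 56.9 and 12.4 CPM against 1132, 1678 and 2177 CPM (5.73, SE 0.69, adjusted p = 0.00193) and kept its call without each library. Tnfsf4 (5.63), Cd86 (4.51) and Cd80 (2.46) were the other genes that rose. The class II chains H2-Aa and H2-Eb1 and the invariant chain Cd74 had log2 fold changes of -0.35, -0.08 and -0.41 with overlapping groups. The class II chain H2-Ab1 had 13.9, 51.9 and 63.5 CPM against 80.03, 89.0 and 77.8 CPM, higher with no overlap but not called (0.93, SE 0.51, adjusted p = 0.195). Cd74 was low in library 1 of both groups, at 50.1 CPM (f/f-headed) and 81.2 CPM (cre-headed), against 289 to 824 CPM in the other 4 libraries. The list had 1 call without cre-headed library 2 and at most 3 without another.

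Markers of alternative activation did not move together. Of 15 tested, 1 was higher (6.67%, against 9.25% of all genes) and 1 lower (6.67%, against 7.81%), with a median log2 fold change of 0.13. By library totals alone, 1 was higher and 3 were lower. Il4ra, the interleukin-4 receptor, rose from 70.3, 66.1 and 33.4 CPM to 321, 410 and 290 CPM (2.59, SE 0.33, adjusted p = 0.00212), and the call was kept without each library. Pparg, a nuclear receptor of lipid metabolism, fell from 30.9, 46.4 and 33.8 CPM to 4.65, 8.93 and 8.97 CPM (-2.30, SE 0.31, adjusted p = 0.00273), a call lost without f/f-headed library 2 or cre-headed library 2 or 3 (adjusted p at most 0.0121). Mrc1, which encodes the mannose receptor CD206, had 70.6, 457 and 14.1 CPM against 47.2, 281 and 288 CPM. The f/f-headed libraries covered the whole range of the cre-headed ones (0.18, SE 1.21, adjusted p = 0.918), and the sign of the difference depended on the setting. Arg1, described above, is a classical marker of this state as well, and Retnla had 0 counts in each of the 6 libraries.

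Genes of macrophage identity mostly did not pass the test. Of 23 tested, 4 were higher (17.4%, against 9.25% of all genes) and 1 lower (4.35%, against 7.81%), with a median of 0.79. By library totals alone, 3 were higher and 3 lower. Cebpb, a transcription factor of inflammatory macrophages, rose from 175, 175 and 109 CPM to 1059, 1073 and 1001 CPM (2.77, SE 0.25, adjusted p = 0.000812) and kept its call without each library. Tfec, a factor of the MiT family, rose from 11.6, 16.9 and 5.54 CPM to 171, 73.0 and 79.4 CPM (3.25, SE 0.53, adjusted p = 0.00537), but lost the call without any single library (at most 0.0204). Cebpd (2.64) and Spi1, which encodes PU.1 (1.14), rose as well, and Cebpa fell by 2.37 on the log2 scale (SE 0.32, adjusted p = 0.00254). Csf1r, the receptor for M-CSF, had 1637, 1496 and 2715 CPM against 1604, 1266 and 988 CPM (-0.60, SE 0.32, adjusted p = 0.188), and Cd68 differed by -0.08 (SE 0.25). Lyz2 was not called either (-0.80, SE 0.51, adjusted p = 0.261), its highest library being f/f-headed library 3. Cx3cr1, the fractalkine receptor, had 151, 7.49 and 346 CPM against 12.9, 2.95 and 0.44 CPM and did not pass (-4.95, SE 1.65, adjusted p = 0.0567). The list had 2 calls without f/f-headed library 2 or cre-headed library 1 or 3, and at most 4 without another.

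Receptors and bridging molecules of efferocytosis, the uptake of apoptotic cells, had calls in both directions. Of 30 tested, 5 were higher (16.7%, against 9.25% of all genes) and 3 lower (10.0%, against 7.81%), or 3 and 6 by library totals alone, with a median log2 fold change of 0.55. Genes of this kind were displayed by the study for these same libraries, so their count is not independent evidence of a direction. Xkr8, a scramblase that exposes phosphatidylserine on dying cells and thus does not take part in uptake itself, rose from 8.98, 8.04 and 7.92 CPM to 112, 195 and 98 CPM (4.02, SE 0.31, adjusted p = 0.000626). C3, a complement component, rose from 319, 153 and 132 CPM to 3774, 3497 and 1395 CPM (3.84, SE 0.56, adjusted p = 0.00331). Xkr8 kept its call without each library, whereas C3 lost it without f/f-headed library 2 or 3 or cre-headed library 1 or 2 (adjusted p at most 0.0166). Tgm2 (1.79), Rhog (1.38) and Jmjd6 (1.29) were the others that rose. The 3 that fell were Cd300a (-3.55, SE 0.42), an inhibitory receptor for phosphatidylserine, Gas6 (-1.79, SE 0.29), the ligand of MERTK and AXL, and Itgb5 (-1.14, SE 0.22), an integrin subunit. Mertk (1.14, SE 0.64, adjusted p = 0.206) and Axl (0.05, SE 1.15, adjusted p = 0.979) did not pass. C1qa was near 5 CPM in library 1 of both groups and between 139 and 816 CPM in the other 4 libraries. The list had 3 calls without f/f-headed library 2 and at most 6 without another.

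**Figure D4:**
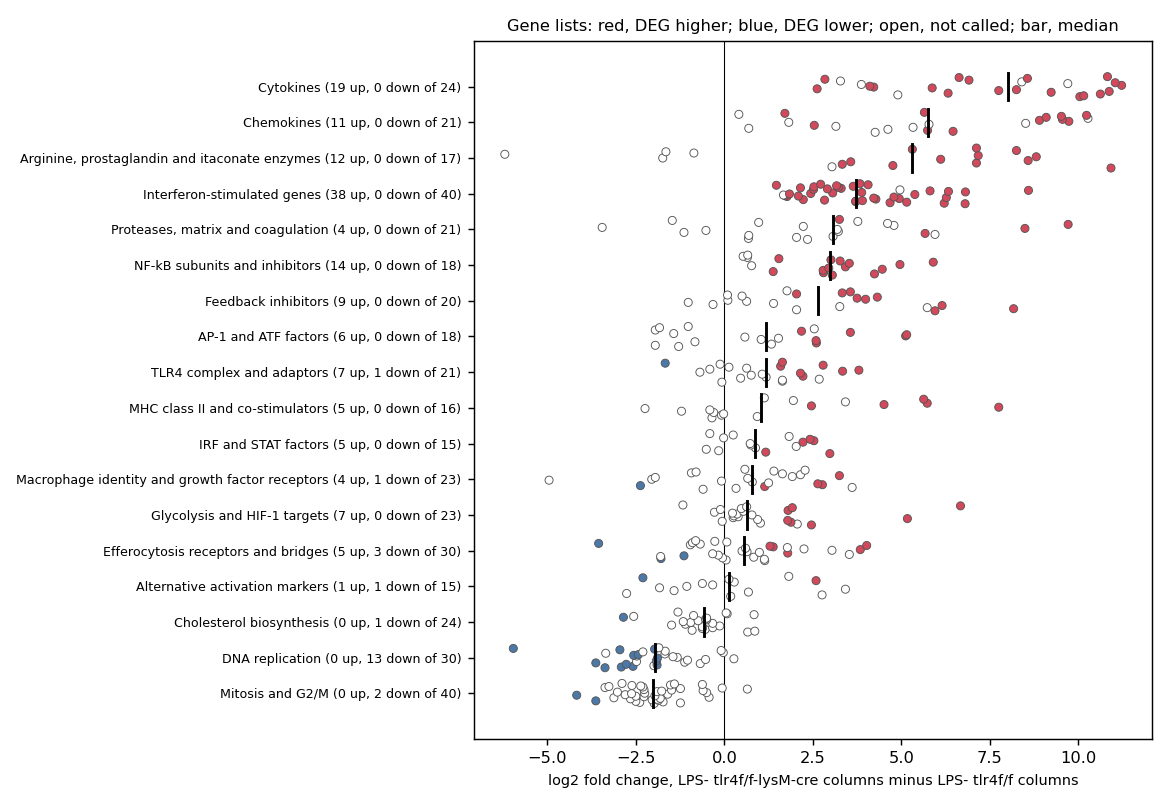
Log2 fold change (cre-headed minus f/f-headed) of each tested member of the response lists, with DEGs that were higher in red, DEGs that were lower in blue, other members as open points and a bar at the median. The medians run from 8.0 for cytokines and 3.71 for interferon-stimulated genes to -1.95 for DNA replication and -2.01 for mitosis, where few points are filled.

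Genes of mitosis had log2 fold changes below 0, of which few passed the test. In the mitosis and G2/M list, 39 of 40 genes were below 0 (median -2.01) and 2 were DEGs, both lower, a smaller share than the 7.81% of all genes. An adjusted p below 0.05 was reached by 17 (42.5%, against 37.3% of all genes). The count depended on the fit, with 21 lower DEGs by DESeq2, 18 in the fit of all 12 libraries and 17 by library totals alone. Kif23, a kinesin of the central spindle, fell from 19.4, 28.7 and 16.4 CPM to 1.54, 1.35 and 0.68 CPM (-4.17, SE 0.40, adjusted p = 0.001). Cdc25b, the phosphatase that activates CDK1, fell from 30.5, 48.0 and 31.2 CPM to 3.71, 3.43 and 1.72 CPM (-3.63, SE 0.37, adjusted p = 0.00117), and both calls were kept without each library. Many of the others were already low in f/f-headed library 3. Cenpf, for example, had 18.4, 24 and 1.08 CPM against 2.65, 1.66 and 1.04 CPM (-3.02, SE 1.04, adjusted p = 0.0615), and without f/f-headed library 3 the list held 10 DEGs, all lower. Mki67, the Ki-67 antigen, had 182, 276 and 44.0 CPM against 139, 123 and 64.1 CPM and overlapped (-0.62, SE 0.64, adjusted p = 0.474).

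In the list of DNA replication, 13 of 30 genes were lower (43.3%, against 7.81% of all genes) and none was higher (median -1.95). An adjusted p below 0.05 was reached by 23 (76.7%, against 37.3% of all genes). DESeq2 called 23, and the fit of all 12 libraries 24. E2f2, a transcription factor of S-phase genes, fell from 43.6, 38.4 and 87.7 CPM to 1.29, 1.17 and 0.24 CPM (-5.96, SE 0.71, adjusted p = 0.0019). Cdc6, which loads the replicative helicase, fell from 18.4, 17.7 and 8.59 CPM to 1.74, 1.06 and 0.80 CPM (-3.63, SE 0.45, adjusted p = 0.00199). The groups were far apart in both, and both lost the call only without cre-headed library 2 (adjusted p 0.0104 and 0.0116). Of the 6 helicase subunits, Mcm2 (-3.37), Mcm3 (-2.91), Mcm7 (-2.77), Mcm4 (-2.58) and Mcm6 (-1.90) fell, and Mcm5 was not called (-1.99, SE 0.52, adjusted p = 0.0256). Pcna, the sliding clamp, had overlapping groups (-0.53, SE 0.28, adjusted p = 0.188). The list had 6 calls without cre-headed library 2, 8 without f/f-headed library 2 and 14 without f/f-headed library 3.

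An E2F site (TTTCCCGC or TTTGGCGC, both strands) lay before 5 of the 24 DNA replication genes with a window (20.8%) and before 3.03% of the mitosis genes, 2.80% of all genes, 4.82% of the DEGs that were lower and 1.86% of those that were higher. The promoters of Cdc6 (chr11:98907977-98908056, plus strand), where the site lies 130 bases before the start used and on the other strand, and Mcm6 (chr1:128359709-128359788, minus strand), 39 bases before it, are shown with the site in capitals. The start used for Cdc6 lies within its annotated gene span (chr11:98907709-98923942), so the stretch shown is inside that span.
Cdc6: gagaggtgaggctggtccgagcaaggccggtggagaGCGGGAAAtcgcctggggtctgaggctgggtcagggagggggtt
Mcm6: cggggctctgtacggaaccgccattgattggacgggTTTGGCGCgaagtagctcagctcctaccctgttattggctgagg

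Of 24 cholesterol biosynthesis genes, 1 was lower (4.17%, a smaller share than the 7.81% of all genes) and none higher (median -0.58). By library totals alone, 10 were lower. The 1 gene called in the main fit was Dhcr7, the last enzyme of the pathway. It fell from 16.1, 31.9 and 25.7 CPM to 2.73, 4.46 and 3.02 CPM (-2.85, SE 0.34, adjusted p = 0.00175) and lost its call without cre-headed library 3 (adjusted p 0.0109). Of 23 genes of glycolysis and HIF-1 targets, 7 were higher (30.4%, against 9.25% of all genes) and none lower (median 0.63). By library totals alone, 4 were higher and 1 lower. Pfkfb3, which makes the activator of phosphofructokinase, rose from 28.9, 46.4 and 26.6 CPM to 595, 1719 and 1359 CPM (5.17, SE 0.51, adjusted p = 0.00106) and kept its call without each library. Adm, adrenomedullin, rose from 0.08, 0.06 and 0 CPM to 4.55, 1.55 and 9.27 CPM (6.67, SE 1.12, adjusted p = 0.0056), a call kept only without cre-headed library 2 (at most 0.0238 without another). Hif1a (2.46), Hk2 (1.88), Slc16a3 (1.80), Pfkl (1.79) and Bnip3 (1.92) also rose, whereas the later enzymes Gapdh (0.27), Pkm (-0.28) and Ldha (0.54) did not pass. This list had 2 calls without f/f-headed library 2 and at most 5 without another.

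Of 21 genes of proteases, matrix and coagulation, 4 were higher (19.0%, against 9.25% of all genes) and none lower (median 3.07). DESeq2 called 11 higher and 1 lower. Serpinb2, the plasminogen activator inhibitor PAI-2, had 0.57, 0.24 and 0.07 CPM against 344, 56.6 and 345 CPM (9.71, SE 1.14, adjusted p = 0.00188). Adamts4, an aggrecan-cleaving protease, had 0.78, 0.20 and 0.03 CPM against 213, 90.0 and 65.1 CPM (8.49, SE 1.11, adjusted p = 0.00253). Both lost their call only without f/f-headed library 2 (adjusted p 0.0121 and 0.0148). Mmp14 (5.67) and Procr (3.25), the receptor of protein C, also rose. Mmp9 ranged from 0.12 to 188 CPM within the f/f-headed libraries and was not called (2.04, SE 1.92, adjusted p = 0.434), and Plau, the urokinase, did not pass (-3.45, SE 1.11, adjusted p = 0.0504). No gene of the list was called without f/f-headed library 2, where the DEG rule left 0 of 21, and 6 were called without f/f-headed library 3.

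The libraries headed LPS+ allow the same contrast of headings in samples that share none with those above. Read as headed, it compares tlr4f/f-lysM-cre with tlr4f/f under LPS, and with the headings swapped it is the response of Cre-carrying BMDMs to LPS. It gave 3161 DEGs of 14540 tested (21.7%), 1572 higher and 1589 lower. Over the 13912 genes tested in both contrasts, 1474 were DEGs in the same direction (899 higher, 575 lower), which is 60.3% of the 2445 DEGs of the LPS- columns and 48.6% of the 3036 of the LPS+ columns, and 2 were DEGs in opposite directions. Pearson's r of the log2 fold changes was 0.8656 across these genes, which are not independent replicates. Of the genes higher in the LPS- columns, 1290 of 1304 also had a log2 fold change above 0 in the LPS+ columns, and of those lower, 1130 of 1141 had one below 0.

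The difference between the contrasts was tested over all 12 libraries, and it passed the same rule for 164 of 15775 genes (1.04%). The signed difference, LPS- minus LPS+ columns, was above 0 for 60 (0.380%) and below 0 for 104 (0.659%). Of the DEGs of the LPS- columns tested in both contrasts, 143 passed. Of these, 51 had a larger rise and 92 a larger fall in the LPS- columns, and 0 had a smaller one. DEGs of the LPS- columns were chosen by their change there, which favours this. In the fit of all 12 libraries, all groups share 1 estimate of the spread per gene. Correlations within groups were 0.9886 to 0.9908 in the LPS+ columns and 0.928 to 0.964 in the LPS- columns. The SE and adjusted p of a difference may thus understate the spread of the LPS- libraries. Pfkfb3 rose by 5.17 in the LPS- columns and by 1.65 in the LPS+ columns (difference 3.53, SE 0.49, adjusted p = 0.00451). Peli1 rose by 3.56 and 1.91 (difference 1.66, adjusted p = 0.00183), Dusp16 by 3.99 and 2.56 (1.44, adjusted p = 0.00413), Junb by 2.59 and 1.04 (1.56, adjusted p = 0.00244), Tnfsf9 by 2.84 and 0.75 (2.10, adjusted p = 0.00877) and Stat3 by 2.42 and 1.08 (1.34, adjusted p = 0.00813). Among the genes that fell, Cnr2 changed by -7.19 and -3.94 (difference -3.24, adjusted p = 0.00413), Mcm3 by -2.91 and -1.49 (-1.41, adjusted p = 0.00793) and Pold1, a DNA polymerase subunit, by -2.56 and -1.39 (-1.16, adjusted p = 0.00985). Klf4, a factor of alternative activation, had 0.13 in the LPS- columns, where it was not called, and -2.51 in the LPS+ columns (difference 2.64, adjusted p = 0.00244). For Il1b (10.15 and 9.66, adjusted p of the difference 0.856), Socs3 (8.17 and 7.65, 0.734) and Rsad2 (6.80 and 6.08, 0.372) the difference did not pass.

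**Figure D5:**
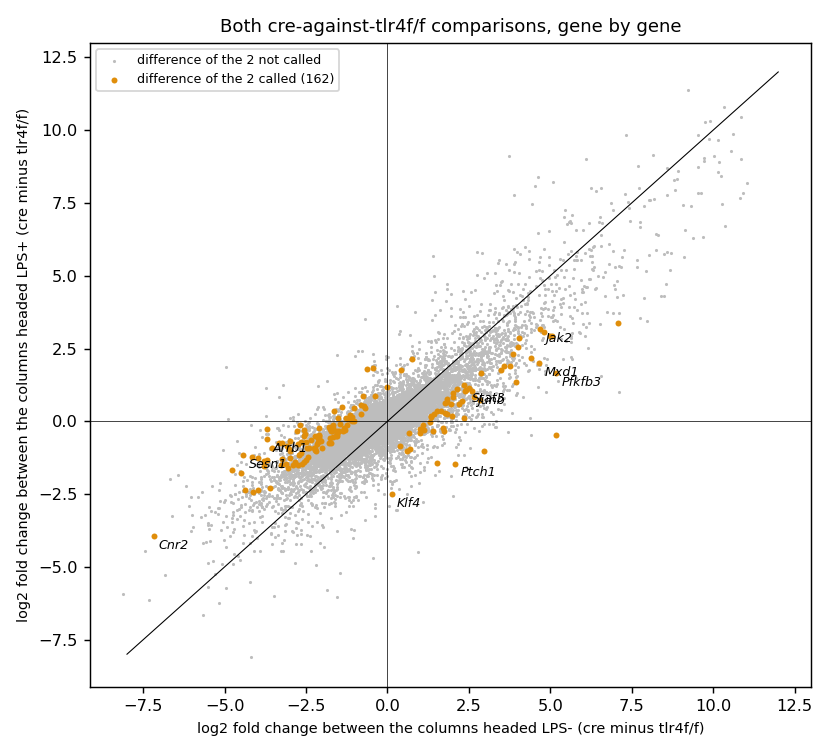
Log2 fold change of the 13912 genes tested in both contrasts, LPS- columns on the horizontal and LPS+ columns on the vertical axis, with the diagonal of equal change. Orange points are the 162 of these genes whose difference was called, among them Pfkfb3 (5.17 and 1.65) and Cnr2 (-7.19 and -3.94).

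With the headings swapped, the contrast of genotypes without LPS would be that of the libraries headed LPS+ tlr4f/f against the same f/f-headed libraries. Since it shares these 3 libraries, its values are only set beside the others. It had 0 DEGs of 14701 genes tested by edgeR (0.00%), with 187 at an adjusted p below 0.05 and 3624 at an unadjusted p below 0.05. Its log2 fold changes were -10.09 for Lyz2, -2.02 for Tlr4, -0.19 for Il1b and -1.50 for Il10, beside -0.80, -0.07, 10.15 and 5.87 in the cre-headed libraries. The edgeR adjusted p of this contrast were 0.0224 for Lyz2, 0.0402 for Tlr4, 0.935 for Il1b and 0.223 for Il10. The DEG rule thus missed even the change of Lyz2, so the count of 0 does not show that these groups are alike.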

How the data were processed

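The authors trimmed reads (Trimmomatic 0.36 per the submitters' processing notes), aligned them to mm10 with HISAT2 and ran HTSeq. What the authors deposited are raw whole-number counts of reads for 115140 transcripts (106335 RefSeq, 8805 Ensembl). The labels name both rRNA depletion and a polyA protocol. Because transcripts of a gene share reads, the transcript with the highest total was kept for each of 43131 genes. Reads carry no molecular identifiers, so count floors cover counting error only.

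Libraries were grouped by the column headings. Genes were tested with edgeR 4.0.16 (R 4.3.3) on the 6 libraries, by a robust quasi-likelihood fit after filterByExpr and TMM scaling, with Benjamini-Hochberg adjustment. CPM use the TMM-scaled library sizes. The DEG rule (fold change over 2, adjusted p under 0.01) is that of the study, which used DESeq. A gene with every library of a group at 3 counts or fewer is given as a bound computed with 3 counts per library. Named genes are Tlr4, Lyz2, Il1b, Nos2, Ccl2, Il10 and Mrc1, the 2 DEGs with the largest change per list and the 4 per direction over all genes, among genes with a symbol, no overlap, and 10 or more counts in each library of the group with the higher level. The members and lists were chosen with earlier results of these data known. For 2 genes no value is reported.

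Alternatives were DESeq2 1.42.0, limma 3.58.1 voom with quality weights, RLE factors, 2 other filters, a fit of all 12 libraries, a replicate block, an adjusted p below 0.05, counts summed over each gene's transcripts, each library left out and, added after seeing the data, library totals without TMM factors. On simulated data for this comparison (14378 genes, 3 false calls), 200 genes were changed, as many up as down. There the DEG rule recovered 44% of log2 changes of 2 and 72% of log2 changes of 4. The data gave 2497 DEGs and TMM factors that differ between the groups. The simulation therefore does not give the recovery or the false calls in these data. Promoter windows are RefSeq sequence of GRCm38.p6. Figures were drawn with Python 3.11.15 and matplotlib 3.10.9. Enrichment analyses and the kidney experiments were not analysed here.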

Additional observations from a re-analysis of the deposited data

Results flagged for a closer look

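The difference between the LPS- and the LPS+ columns, each taken as cre-headed minus f/f-headed libraries, passed the test for 2 of the named genes. Pfkfb3 rose more in the LPS- columns, by 3.53 on the log2 scale (SE 0.49, adjusted p = 0.00451 with edgeR). Cnr2 had the larger fall in the LPS- columns, with a difference of -3.24 (SE 0.43, adjusted p = 0.00413). Both genes were named for a large change without overlap in the LPS- columns. That choice favours a larger change there than in the LPS+ columns, and the lack of overlap adds no support. With 3 libraries per group, the search for single libraries that stand apart was not made.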

How the results depend on the processing

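The count of 2497 DEGs was 4186 with DESeq2, 4251 with all 12 libraries fitted together, 4056 with an adjusted p below 0.05, 4206 by library totals without TMM factors (added after seeing the data), and 1038 to 1682 with a library left out. With the replicate block it was 2198, the block gave 9 named genes an adjusted p above 0.01, and it called 17 genes of the mitosis list in place of 2 and 8 of macrophage identity in place of 5. The replicate numbers were not treated as pairs: correlations of same-numbered deviations were 0.498, 0.354 and -0.069, and f/f-headed library 3 correlated best with cre-headed library 2. Of 46 named genes, 42 were called, all 42 also with DESeq2, RLE factors, library totals and the fit of 12 libraries. Calls were lost by 4 genes with voom, 15 without a filter and 3 with summed transcripts, and 17 kept their call with each library left out in turn. Tlr4 (-0.07) changed sign to 0.00 with DESeq2, 0.01 with RLE factors, 0.15 without f/f-headed library 2 and 0.03 without cre-headed library 2, and with a library left out it ranged from -0.29 to 0.15. Mrc1 (0.18) was -0.08 with voom, -0.37 by library totals, -0.21 and -0.37 without f/f-headed libraries 1 and 3, and -0.12 and -0.08 without cre-headed libraries 2 and 3, with a range of -0.37 to 2.27. The causes were not tested. Among the lists, DESeq2 called 13 genes of macrophage identity in place of 5, 12 of proteases in place of 4 and 10 AP-1 and ATF factors in place of 6. Without a filter, 2 of the MHC class II and co-stimulator list were called in place of 5. Depth was not varied, so its part in these counts was not tested.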

Other observations

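Library 1 of both groups differed from libraries 2 and 3 in genes that did not separate the groups, a set chosen after its values were seen. Scaled over the 12 libraries, C1qb, a chain of complement C1q, had 9.87, 1359 and 444 CPM in f/f-headed libraries 1 to 3 and 11.8, 1721 and 1122 CPM in cre-headed libraries 1 to 3. Ly86, the partner of the TLR4 homologue RP105, had 0.15, 66.2 and 24.4 CPM against 0.24, 131 and 77.0 CPM. F13a1, coagulation factor XIII A, went the other way, with 29.9, 1.62 and 0.04 CPM against 33.7, 0.81 and 4.02 CPM, as did Acta2, smooth muscle actin, with 33.5, 1.04 and 0.51 CPM against 58.5, 3.07 and 13.2 CPM. In the LPS+ columns, C1qb had 598.2, 623.7 and 212.5 CPM under tlr4f/f and 593.8, 588.4 and 217.3 CPM under tlr4f/f-lysM-cre, so library 3 was the lowest in both. The labels give the first libraries the same number and name nothing else that they share. A common source of same-numbered libraries was not tested.

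Further genes whose change differed between the LPS- and the LPS+ columns, likewise chosen after their values were seen, include Sesn1, a stress-responsive sestrin (-4.43 and -1.16, difference -3.28, adjusted p = 0.000283 with edgeR), Arrb1, beta-arrestin 1 (-3.70 and -0.61), the survival factor Bcl2 (-3.96 and -1.26) and the kinase Jak2 (4.68 and 3.16, difference 1.53, adjusted p = 0.00236). Angpt1, angiopoietin 1, changed by 5.17 in the LPS- columns and -0.47 in the LPS+ columns (difference 5.63, SE 0.73, adjusted p = 0.00382), and Ptch1, the Hedgehog receptor, by 2.07 and -1.46 (3.52, adjusted p = 0.00175).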
